A study of Mus musculus with 28 samples.

Results

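The miR-29 family was followed in alveolar macrophages (AM), the phagocytes of the airspace, after ozone (O3) or filtered air (FA). Its members here are the 3 mature strands that the deposited tables name mmu-mir-29a-3p, mmu-mir-29b-3p and mmu-mir-29c-3p, taken by name, with earlier results of these data known. They are 3 of the 607 miRNAs that appear in at least 1 of 4 tables, and all 3 stand in each table. The tables are of unequal length, with 565 miRNAs in that of KO males, 412 in that of co-ex males, 403 in that of KO females and 368 in that of co-ex females. The mice were C57BL/6, 12 weeks old, breathed FA or O3 for 3 h and recovered for 4 h. The co-ex mice are humanized transgenic mice with both human surfactant protein A genes, SP-A1 and SP-A2 (6A2/1A0), on a C57BL/6J background that lacks mouse SP-A, and the KO mice lack SP-A altogether, so none of the 8 groups holds the mouse protein. Females had been synchronized for the estrous cycle. Each co-ex group (females or males, FA or O3) has 4 libraries, and each KO group has 3 where 4 animals were exposed. The replicates are separately numbered mice as far as the labels tell.

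miRNAs guide the silencing complex to messenger RNAs that pair with their seed, bases 2 to 8 from the 5′ end, and lower the output of those messages. The miR-29 family is best known as a brake on extracellular matrix: its classical targets include collagens, elastin and fibrillin, and TGF-beta lowers it in fibrotic lung, heart and liver. It also represses the DNA methyltransferases Dnmt3a and Dnmt3b and the survival factor Mcl1, and in lymphocytes it restrains the interferon-gamma response.

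The mature strands are shown here, from RefSeq on GRCm38.p6, because they explain what the sequencing can and cannot tell apart. The capitals mark the seed.
miR-29a-3p: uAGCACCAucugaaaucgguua
miR-29b-3p: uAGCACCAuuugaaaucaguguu
miR-29c-3p: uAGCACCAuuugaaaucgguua
Of 1679 mature mouse miRNAs in the RefSeq table, only these 3 have the seed AGCACCA. Counted from the 5′ end, miR-29c-3p differs from miR-29a-3p by C10U alone in 22 bases. From miR-29a-3p to miR-29b-3p the changes are C10U, G18A, U21G and A22U, and miR-29b-3p has 1 more base. A read is therefore called miR-29c-3p rather than miR-29a-3p on 1 base, which matters because miR-29a-3p was the far more abundant of the pair. The 3′ end of miR-29b-3p, which the others lack, is known from cultured cells as a signal for import into the nucleus.

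The family comes from 4 hairpins in a pair of clusters. Mir29b-1 and Mir29a lie on the minus strand of chromosome 6 (chr6:31062660-31063093), with 275 bases between them. In GENCODE M21, Mir29b-1 falls in an exon of the noncoding gene Gm27019, and no other gene overlaps Mir29a. Mir29b-2 and Mir29c lie on the plus strand of chromosome 1 (chr1:195037040-195037634), with 426 bases between them, in an exon of the noncoding gene A330023F24Rik and opposite a UTR exon of Cd46 on the other strand. The strand miR-29a-3p maps to chr6:31062673-31062694 and miR-29c-3p to chr1:195037600-195037621. The strand miR-29b-3p is identical at chr6:31063025-31063047 and chr1:195037091-195037113, so its reads cannot be assigned to a cluster, while the other arms of the hairpins can.
miR-29a-5p: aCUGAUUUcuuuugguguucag
miR-29b-1-5p: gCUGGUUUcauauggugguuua
miR-29b-2-5p: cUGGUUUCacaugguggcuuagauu
miR-29c-5p: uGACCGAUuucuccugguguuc
These partner arms have 4 different seeds and none shares the seed of the members.

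The libraries held 41542 to 2082034 reads on miRNAs, with a median of 490152. The values in the tables are reads divided by a size factor of the library, separately for each table, and the reads behind them could be recovered for all 28 libraries. Where a miRNA had no read, its level could still lie at up to 3 reads, or 1.44 to 72.2 reads per 1000000 miRNA reads (RPM) depending on the library. This limit covers counting error only. A list of 8 macrophage and myeloid miRNA names, of which 6 are in the tables, took 4.25 to 22.3% of the reads in every library. This list and those below count names, which include alternative spellings such as miR-142-3p beside miR-142a-3p. A name that is not listed is therefore not always a miRNA that was missed. One library stood apart for all members: KO male FA replicate 3 had the lowest value of its table for each of them. Among the KO libraries, 3 FA libraries carry label codes (JFRm137, JFRm138 and JFRm140) away from the others (JFRm118 to JFRm126), and results with KO libraries were also computed without them. JFRm137 and JFRm138 are FA replicates 2 and 3 of KO females. JFRm140 is FA replicate 3 of KO males, the library just named. Within KO males, leaving out these codes and leaving out FA replicate 3 are therefore the same fit.

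Within the family, miR-29a-3p dominated in all 28 libraries. It had 260 to 24038 reads per library and made up 92.9 to 99.2% of the family's reads. Each small RNA read stands for 1 mature strand, so reads were compared between members without a correction for length. There were 10 to 658 reads of miR-29b-3p and 0 to 331 of miR-29c-3p, and miR-29b-3p outnumbered miR-29c-3p in 24 of the 28 libraries. By its mean, miR-29a-3p ranked 22 among the 368 miRNAs listed for co-ex females, 12 in co-ex males, 23 in KO females and 23 among the 565 listed for KO males. The ranks of miR-29b-3p in the same order were 141, 158, 144 and 132, and those of miR-29c-3p were 179, 174, 183 and 190. The 3 strands together took 0.397% of the miRNA reads in the lowest library and 2.86% in the highest.

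On the RPM scale, which can be set side by side across tables, the mean level of miR-29a-3p was highest in co-ex males, at 19553 ± 9780 (SD, n = 4) after FA and 19290 ± 2954 (SD, n = 4) after O3. Co-ex females followed with 12615 ± 4712 after O3 and 12533 ± 6895 after FA (SD, n = 4 each). The KO groups came last, with 10980 ± 776 in females and 10302 ± 1977 in males after O3, and 7333 ± 3001 in males and 6677 ± 587 in females after FA (SD, n = 3 each). For each member, every group overlapped the next one in its order of mean levels, so no neighbours in these orders differed beyond the spread of their libraries.

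The order was another one for the scarce members. The highest mean of miR-29b-3p was in co-ex females after O3 (376 ± 98.6 RPM, SD, n = 4) and the lowest in co-ex males after FA (157 ± 60.3 RPM, SD, n = 4). The 4 O3 groups held the 4 highest means of miR-29c-3p, from 220 ± 134 RPM in co-ex females (SD, n = 4) to 121.2 ± 42.5 in KO males (SD, n = 3). The 4 FA groups held the 4 lowest, from 90.05 ± 46.0 RPM in co-ex males (SD, n = 4) to 76.3 ± 36.1 in KO males (SD, n = 3). Sex, genotype and table cannot be told apart in these orders, because each table holds 1 sex of 1 genotype.

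**Figure D1:**
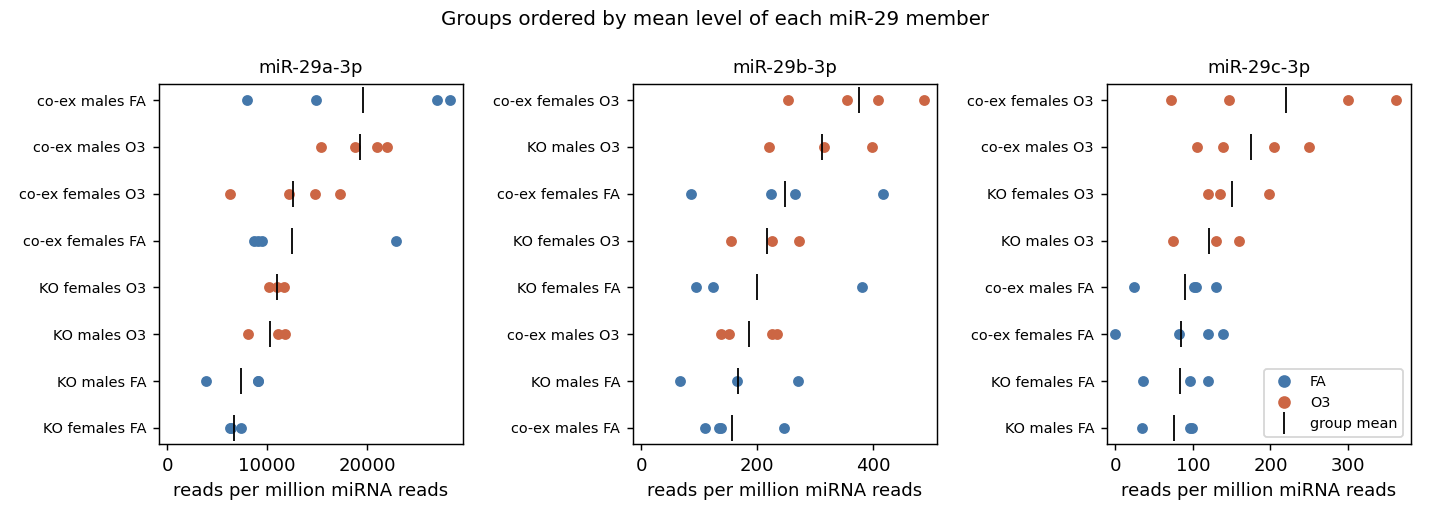
The reads of each member per 1000000 miRNA reads (x axis) are plotted for each library (points, FA blue and O3 orange) with the groups ordered by their mean (vertical tick). The O3 groups fill the upper 4 places for miR-29c-3p, and neighbouring groups overlap for all 3 members.

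The main comparison asked whether O3 changed the members within each table. None of the 12 tests, 3 members in 4 tables, had an adjusted p under 0.1 by limma on log2(value + 1) with Benjamini-Hochberg adjustment over all miRNAs tested. Each of the 12 estimates was above 0, from 0.05 to 1.77 on the log2 scale. How many other miRNAs rose in every table was not counted. For low values the size depends on the method. The largest estimate, miR-29c-3p in co-ex females, was 2.61 by limma with a pseudocount of 0.1 and 1.34 by edgeR and by DESeq2. By edgeR, miR-29a-3p was at -0.039 in co-ex females and -0.056 in co-ex males, and miR-29b-3p at -0.10 in KO females. All members passed the filter on low values in each table. By this rule 13.2% of all tested miRNAs were called in KO females (42 of 319), 0.909% in KO males (4 of 440), 0.369% in co-ex females (1 of 271) and 0% in co-ex males (0 of 312). In co-ex males 11 miRNAs had an unadjusted p under 0.05 by limma, and edgeR and DESeq2 on the recovered reads called 0 as well. As these are bulk samples, fewer cells of a type and less RNA per cell cannot be told apart.

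In KO females, miR-29a-3p had normalized values of 3553, 3813 and 3822 after FA and 5126, 5612 and 5405 after O3. The 3 O3 libraries lay above the 3 FA libraries, and within each group the values were within a narrow range. The means were 3729 ± 153 and 5381 ± 244 (SD, n = 3 each), a log2 change of 0.53 (95% confidence interval 0.07 to 0.98, unadjusted p = 0.028, adjusted p = 0.144 by limma). Libraries that do not overlap were common in this table, at 31.3% of the tested miRNAs, where the other tables had 12.7% (KO males), 4.06% (co-ex females) and 2.88% (co-ex males). Under chance alone such a separation has a probability of 0.1 with 3 against 3 libraries and 0.0286 with 4 against 4. The KO and co-ex shares therefore have unlike baselines, and those outside KO females lay near them. The change ranked 60 of 319 by its p. When libraries were scaled to their totals, the log2 change was 0.72 with an adjusted p of 0.059 by limma, but the median of all miRNAs also moved, from 0.06 to 0.25. With this scaling 46 of 319 miRNAs were called. In the same libraries a list of 11 airway and alveolar epithelium miRNAs took 0.224 to 0.554% of the reads after FA and 2.83 to 5.16% after O3, and 9 of the 11 rose by limma. Lists of fibroblast and smooth muscle miRNAs (6 of 7 names listed) and of endothelial miRNAs (2 of 4 names listed) took less, yet their shares also did not overlap. The former took 0.0143 to 0.0928% after FA and 0.101 to 0.507% after O3. The latter took 0.000897 to 0.0016% after FA and 0.00489 to 0.0674% after O3. A list of striated muscle miRNAs (2 of 3 listed) overlapped, at 0.00289 to 0.0124% after FA and 0.00186 to 8.53% after O3. The part of these lists in the change of miR-29a-3p was not tested. Without the FA libraries JFRm137 and JFRm138 a single FA library is left, and the log2 change was 0.60, a value that says nothing of its spread.

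The other members spread more widely in KO females. For miR-29b-3p the values were 70.6, 227 and 48.9 after FA and 78.1, 108 and 134 after O3. FA replicate 2 was the highest of the 6 libraries, and the mean was 115 ± 97.2 after FA and 106 ± 27.8 after O3 (SD, n = 3 each), while the log2 change was 0.17 (interval -1.44 to 1.78, adjusted p = 0.935 by limma). In that library miR-29c-3p was at its lowest. Its values were 54.7, 21.2 and 62.2 after FA and 67.9, 94.8 and 58.7 after O3, and FA replicate 3 lay above O3 replicate 3. The log2 change of miR-29c-3p was 0.78 (interval -0.90 to 2.46, adjusted p = 0.582 by limma). Without FA replicate 2 the log2 changes were 0.81 for miR-29b-3p and 0.30 for miR-29c-3p.

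In KO males, the values of miR-29a-3p were 12853, 12055 and 5665 after FA and 12992, 13585 and 9864 after O3. The groups overlapped, since O3 replicate 3 lay below the pair of higher FA libraries. The log2 change was 0.33 (interval -0.62 to 1.28, adjusted p = 0.952 by limma) and turned to -0.049 without FA replicate 3. For miR-29b-3p the values were 383, 220 and 98.5 after FA and 372, 459 and 270 after O3, with a log2 change of 0.82 (interval -0.59 to 2.23, adjusted p = 0.919 by limma). The values of miR-29c-3p were 136, 131 and 50.7 after FA and 187, 149 and 91.9 after O3, with a log2 change of 0.50 (interval -0.90 to 1.89, adjusted p = 0.952 by limma). In both cases FA replicate 3 was the lowest of the 6 libraries, and the log2 changes without it were 0.30 and 0.036. The list of epithelium miRNAs took 0.241 to 2.92% of the reads after FA in this table and 2.63 to 3.51% after O3. The macrophage and myeloid list took 4.25 to 22.3% after FA and 8.40 to 15.6% after O3. The fibroblast and smooth muscle list took 0.0829 to 2.63% after FA and 0.276 to 0.488% after O3. The part of these lists in the changes of the members was not tested.

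Co-ex males showed broad FA groups. The values of miR-29a-3p were 10902, 8973, 2757 and 3961 after FA and 6653, 5640, 7827 and 7011 after O3. The O3 libraries fell between a pair of high and a pair of low FA libraries. The high pair had 491311 and 891030 reads in all, and the low pair 126398 and 181805. After O3, replicate 4 had the fewest reads (209935) but not the lowest value. The part of depth in these values was not tested. The log2 change was 0.24 (interval -0.74 to 1.22, adjusted p = 0.944 by limma, and -0.056 by edgeR on recovered reads). For miR-29b-3p the values were 51.7, 81.7, 38.1 and 36.5 after FA and 48.5, 82.9, 56.2 and 74.3 after O3, a log2 change of 0.37 (interval -0.73 to 1.47, adjusted p = 0.944 by limma). For miR-29c-3p they were 39.2, 43.3, 8.17 and 27.8 after FA and 37.5, 51.3, 92.9 and 65.2 after O3. Here 3 of the 4 O3 libraries exceeded every FA library, and the log2 change was 1.18 (interval -0.22 to 2.59, adjusted p = 0.944 by limma). FA replicate 3, the lowest library, held only 3 reads of miR-29c-3p, and without it the log2 change was 0.68. Without the same library the change of miR-29a-3p turned to -0.11.

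Co-ex females had the shallowest libraries. The values of miR-29a-3p were 1334, 3867, 1486 and 1342 after FA and 1046, 1890, 2534 and 2374 after O3. FA replicate 2, with 488993 reads in all, was the highest of the 8 libraries and O3 replicate 1, with 41542, the lowest. These were also the most and the fewest reads in this table. By contrast, FA replicate 3 with 93520 reads had a higher value than FA replicate 4 with 182207. The part of depth in these values was not tested. The log2 change was 0.05 (interval -0.93 to 1.03, adjusted p = 0.975 by limma), and -0.039 by edgeR and -0.023 by DESeq2 on the recovered reads. For miR-29b-3p the values were 13.1, 45.0, 36.7 and 59.0 after FA and 68.4, 75.6, 52.0 and 40.8 after O3, a log2 change of 0.75 (interval -0.61 to 2.11, adjusted p = 0.891 by limma). For miR-29c-3p they were 18.4, 23.5, 0 and 11.6 after FA and 12.1, 46.4, 53.2 and 23.5 after O3, a log2 change of 1.77 (interval -0.52 to 4.07, adjusted p = 0.778 by limma). The 0 stands for 0 of 93520 reads, which allows up to 5.24 normalized units, and the value of 12.1 rests on 3 reads. Without the library at 0 the log2 change was 0.73. For miR-29b-3p it was 0.32 without FA replicate 1. In this table a list of 4 red cell miRNA names, of which 3 are listed, took 1.27 to 13.7% of the reads after FA. After O3 the list took 0.283 to 0.428%, and 1 of 2 tested fell by limma. Its part in the values of the members was not tested.

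**Figure D2:**
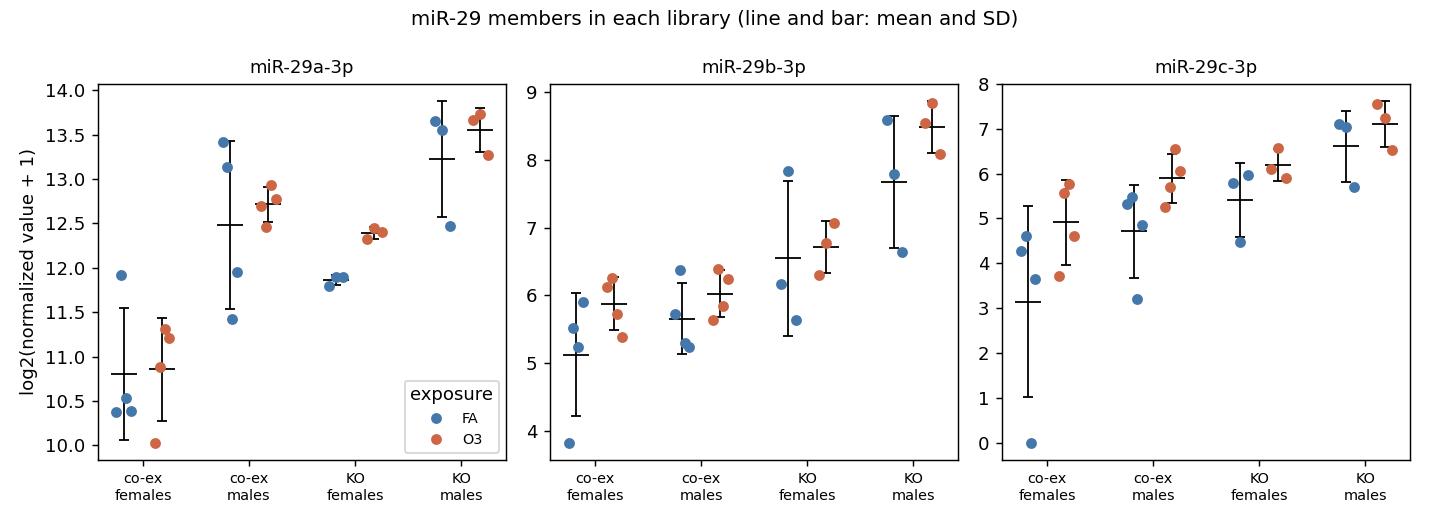
Each point is 1 library (FA blue, O3 orange) on the scale log2(normalized value + 1), with the mean and SD of each group as a line and bar; the tables were normalized separately, so heights are to be compared within a table only. The FA and O3 libraries are apart for miR-29a-3p in KO females (3553 to 3822 against 5126 to 5612) and overlap in the other 11 pairs of groups.

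Taken as the mean of the 4 changes within tables, fitted over all 28 libraries, miR-29c-3p had a log2 change of 1.06 (SE 0.42, 95% interval 0.19 to 1.93, unadjusted p = 0.0189, adjusted p = 0.0946 by limma). This is 2.08-fold on the log2(value + 1) scale. Of the 14 O3 libraries, 12 lay above the FA median of their table. Such counts were made for the members only, so they have no background among the other miRNAs. For miR-29b-3p the mean log2 change was 0.53 (interval -0.07 to 1.12, adjusted p = 0.252 by limma), with all 14 O3 libraries above the FA median of their table. The mean log2 change of miR-29a-3p was 0.29 (interval -0.16 to 0.74, adjusted p = 0.437 by limma), with 11 of 14 libraries above. So 1 of 3 members was called, beside 20.0% of the 230 miRNAs tested (46, with 34 higher and 12 lower after O3), and miR-29c-3p had the highest p among those 46.

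The call for miR-29c-3p was marginal. It held when libraries were scaled to their totals (log2 change 1.14, adjusted p = 0.0811 by limma, 40 of 230 miRNAs called) and with DESeq2 (0.80, adjusted p = 0.0436, 59 of 230 called). It was lost with edgeR's quasi-likelihood test (0.81, adjusted p = 0.152), a pseudocount of 0.1 (1.28, adjusted p = 0.189 by limma), no filter (1.06, adjusted p = 0.115 by limma), the replicate number as a block (1.06, adjusted p = 0.152 by limma) and without the KO FA libraries JFRm137, JFRm138 and JFRm140 (0.85, adjusted p = 0.294 by limma). In the last of these fits the 1 FA library left in KO females was assumed to vary like the other groups. With each library left out in turn, the log2 change stayed between 0.80 and 1.18 and the adjusted p ran from 0.0618 to 0.181 by limma. The call held only without 1 of 7 libraries, which were FA replicates 1, 2 and 4 and O3 replicate 1 of co-ex females, FA replicate 2 and O3 replicate 1 of co-ex males, and O3 replicate 3 of KO males. Of the 10 epithelium miRNAs tested in this comparison, 8 rose by limma, and their part in the change of miR-29c-3p was not tested.

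**Figure D3:**
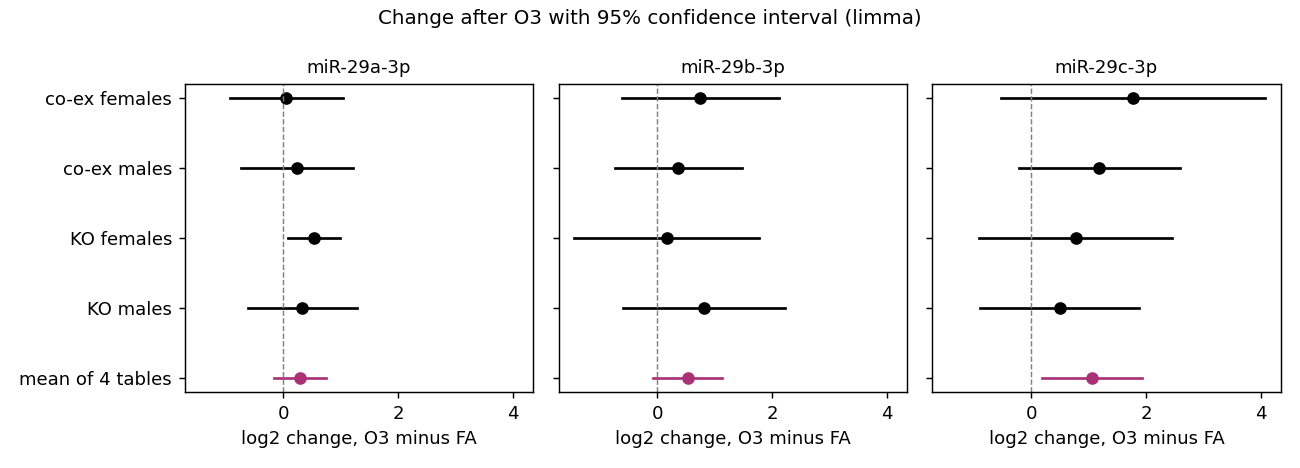
The log2 change after O3 (x axis, O3 minus FA) is drawn with its 95% confidence interval from limma for each member in each table and for the mean of the 4 tables. All 15 estimates lie right of 0, but the means of the 4 tables only average the others, and some estimates changed sign with edgeR. The intervals leave out 0 for miR-29a-3p in KO females (0.07 to 0.98) and for the mean of miR-29c-3p (0.19 to 1.93).

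Whether the response to O3 depended on genotype or sex was tested as a difference between the changes of tables, by limma. None of the 12 differences of members was called. Between co-ex and KO females 8.71% of 241 miRNAs were called, and 0% were called between co-ex and KO males (305 tested), between co-ex males and co-ex females (249) and between KO males and KO females (309), where 6, 8 and 17 miRNAs had an unadjusted p under 0.05. In these 3 comparisons edgeR called 0, 1 and 0 miRNAs and DESeq2 0, 1 and 2. For miR-29a-3p, the change in co-ex females minus that in KO females was -0.48 on the log2 scale (interval -1.66 to 0.71, adjusted p = 0.699 by limma). For miR-29c-3p it was 1.00 (interval -2.04 to 4.03, adjusted p = 0.754 by limma), and it turned to -0.049 with 1 library left out, FA replicate 3 of co-ex females. The other differences ranged from -0.59 to 0.69, and intervals of this width leave room for differences of several fold in either direction.

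The proportions of the members within a library do not depend on how libraries are scaled. In co-ex females there were 0.985, 1.16, 2.47 and 4.40 reads of miR-29b-3p per 100 reads of miR-29a-3p after FA, and 6.54, 4.00, 2.05 and 1.72 after O3. Per 100 reads of miR-29a-3p, reads of miR-29c-3p in these libraries numbered 1.38, 0.608, 0 and 0.868 after FA and 1.15, 2.46, 2.10 and 0.991 after O3. The groups overlapped in both cases. In co-ex males, reads of miR-29c-3p per 100 of miR-29a-3p were 0.359, 0.483, 0.296 and 0.701 after FA and 0.563, 0.910, 1.19 and 0.930 after O3, so 3 of the 4 O3 libraries exceeded every FA library. The log2 ratio rose by 0.95 from FA to O3 in co-ex males (exact two-sided permutation p = 0.0571, adjusted p = 0.457 over 8 tests) and by 1.72 in co-ex females (exact two-sided permutation p = 0.114, adjusted p = 0.457), where no p under 0.0286 can arise with 4 libraries a side. These log2 ratios were taken of value + 1, so the size in co-ex females rests on where the library with no read of miR-29c-3p is placed. It was 2.56 with a pseudocount of 0.1 and 0.77 without that library. In KO, the log2 ratio of miR-29c-3p differed by 0.25 in females and 0.17 in males (exact permutation p = 0.8 and 0.4), where 3 against 3 cannot go below 0.1. The 4 ratios of miR-29b-3p differed by -0.36 to 0.70 (exact permutation p of 0.3 to 0.8). None of the 8 tests passed.

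Of the reads of miR-29a-3p and miR-29c-3p together, which 1 base tells apart, miR-29c-3p took 0 of 851 in FA replicate 3 of co-ex females, where the exact 95% binomial interval reaches up to 0.433%. In O3 replicate 2 of the same table it took 2.40% (exact interval 1.81 to 3.12%). These intervals cover counting error only, since PCR reads are not independent molecules, and not the spread between mice.

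**Figure D4:**
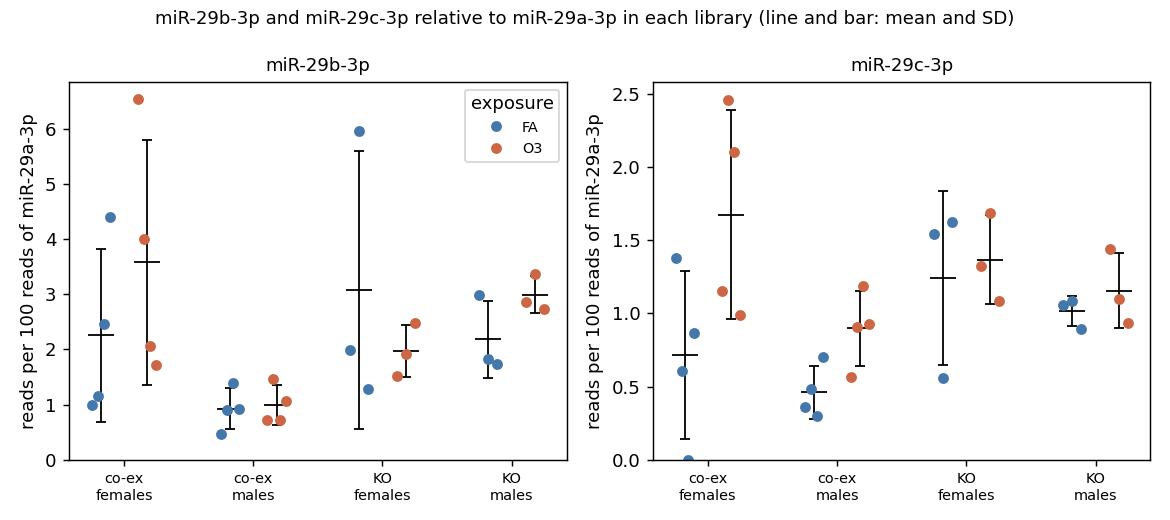
The reads of miR-29b-3p (left) and miR-29c-3p (right) per 100 reads of miR-29a-3p are plotted for each library (FA blue, O3 orange), with the mean and SD of each group. In co-ex males miR-29b-3p stays between 0.474 and 1.47 in all 8 libraries, and miR-29c-3p is at 0.296 to 0.701 after FA and 0.563 to 1.19 after O3.

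Differences between the sexes were fitted by edgeR (quasi-likelihood) to recovered reads of both tables, so sex cannot be told apart from the table. None of the 12 comparisons of members was called. Of all miRNAs, 13.8% of 239 were called in co-ex after FA, 7.79% of 244 in co-ex after O3, 0% of 301 in KO after FA and 0% of 311 in KO after O3, where 23 and 28 had an unadjusted p under 0.05 by edgeR and DESeq2 called 13 and 5. In co-ex mice after O3, miR-29a-3p was 0.80 higher in males on the log2 scale (adjusted p = 0.233 by edgeR) and miR-29b-3p 0.91 lower (adjusted p = 0.238 by edgeR). DESeq2 called the latter (-0.94, adjusted p = 0.0936), among 59 of 244 miRNAs that it called there. The proportion shows both together. Per 100 reads of miR-29a-3p, co-ex males after O3 had 0.728, 1.47, 0.718 and 1.06 reads of miR-29b-3p, and each of these lies under the lowest of the 4 females, 1.72. This comparison of ratios was added after the values were seen. The log2 ratio was lower in males by -1.71 (p = 0.0286 in an exact permutation test, two-sided, which 4 against 4 cannot go below, and adjusted p = 0.229 over 8 tests). In KO after O3 the ratio went the other way, with 2.86, 3.38 and 2.74 reads in males and 1.52, 1.92 and 2.47 in females, a log2 difference of 0.61 (p = 0.1 in an exact permutation test, two-sided, the lowest it can reach, adjusted p = 0.267).

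Beside miR-29a-3p the partner arms, which are usually degraded, were scarce. The most abundant of them, miR-29b-1-5p, had 1121 reads over the 28 libraries, where miR-29c-3p had 2015 and miR-29b-3p 3905. This arm, from chromosome 6, was the only one in all 4 tables, with 0 to 208 reads per library. Its mean level on the RPM scale ran from 29.7 ± 40.2 in co-ex females after O3 (SD, n = 4) to 80.998 ± 21.4 in KO females after O3 (SD, n = 3). The libraries of these 2 groups overlapped, as the highest of the co-ex females reached 88.4 RPM. Its log2 change after O3 was -0.93 in co-ex females, 0.43 in co-ex males, 0.02 in KO females and 0.51 in KO males (adjusted p of 0.891 or more by limma). The arm from the other copy, miR-29b-2-5p, was in the tables of co-ex males and KO males, with 0 to 25 reads per library. In KO males it had 6.25 ± 1.85 normalized units after FA and 14.7 ± 7.51 after O3 (SD, n = 3 each), a log2 change of 1.03 (adjusted p = 0.919 by limma). The tables of all but KO females listed miR-29c-5p, at 0 to 26 reads, and only that of KO males listed miR-29a-5p, at 0 to 17 reads. So the chromosome 6 copy of miR-29b gave more reads of its partner arm than the chromosome 1 copy in KO males, at 27 to 208 reads against 3 to 25.

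The members moved together only in part. Over the 28 libraries, with each table centred on its mean, Pearson's r of log2(value + 1) was 0.56 between miR-29a-3p and miR-29c-3p, which come from different clusters, 0.38 between miR-29a-3p and miR-29b-3p and 0.22 between miR-29b-3p and miR-29c-3p. Depth and size factor differ between the libraries of a table. These r also keep the change from FA to O3, since values were centred on the table and not on the group. The pair miR-29a-3p and miR-29c-3p is told apart by 1 base. The parts of depth, of O3 and of misread bases in r were not tested. The median r of miR-29a-3p with the other miRNAs of the 230 was 0.09. Within KO males r was 0.93 to 0.96 for miR-29a-3p with the others, in 6 libraries where FA replicate 3 is low for all, and within KO females r between miR-29b-3p and miR-29c-3p was -0.63. The 3 miRNAs most like miR-29a-3p were miR-16-5p (r = 0.77), a brake on the cell cycle, miR-30d-5p (0.75) and miR-365-3p (0.75). Those most like miR-29b-3p were miR-511-3p (0.61), which lies in the macrophage mannose receptor gene, miR-21a-5p (0.47) and miR-101a-3p (0.45). For miR-29c-3p they were miR-132-3p (0.65), which CREB induces, miR-450a-5p (0.62) and miR-21a-5p (0.61).

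A list of 10 other miRNAs known from lung fibrosis gives the setting in which miR-29 is usually discussed. In KO females 3 of 8 tested rose and 1 fell by limma, where 32 of all 319 tested miRNAs rose and 10 fell. The risers were miR-200b-3p (log2 change 3.26), miR-200c-3p (2.56) and miR-30a-5p (2.38), of which the miR-200 pair guards epithelial identity and also stands in the list of epithelium miRNAs, and the one that fell was let-7d-5p (-1.19). The adjusted p of these 4 was 0.0126 or less by limma. The profibrotic miR-21a-5p, at -0.27 (adjusted p = 0.468 by limma), was not called. The median log2 change of the list was 1.23, beside 0.06 over all tested miRNAs of that table and 0.53, 0.17 and 0.78 for the 3 members. The list was not sorted by the roles of its miRNAs in fibrosis, so its median has no direction in that sense. In co-ex females 0 of 8, in co-ex males 0 of 9 and in KO males 0 of 9 were called. The 3 that rose in the mean of the 4 tables were the same miR-200b-3p (1.55), miR-200c-3p (1.36) and miR-30a-5p (1.15), of 8 tested, with an adjusted p of 0.0135 or less by limma.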

How the data were processed

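AM were lavaged, and small RNA libraries (NEXTflex v3, Illumina) were trimmed with the FASTX-Toolkit, and aligned and counted with Chimira by the authors. Per the file contents, the deposited values are a signal: reads divided by DESeq2's size factor of the library, within each table. The tables also hold the authors' log2 fold change, p-value, q-value and rank, which were not used. For all 28 libraries 100% of the values were whole multiples of a step within 0.001, which gave the reads. O3 was compared with FA by limma 3.58.1 (trended) on log2(value + 1), for miRNAs that reached 5 in at least the number of libraries of the smaller group. P-values were adjusted by Benjamini-Hochberg and called under 0.1. Males and females were compared by edgeR 4.0.16 (quasi-likelihood, TMM, filterByExpr), and ratios by exact permutation (scipy). DESeq2 1.42.0, other scalings, filters and pseudocounts, a replicate block and each library left out were alternatives, under R 4.3.3 and Python 3.11.15. Scripts were tested on simulated data. Replicates differed by at least 25.7 times counting variance in 36 pairs, so none was a duplicate. The named miRNAs are the members, their partner arms, the 3 most correlated miRNAs of each and the called ones of a fibrosis list. The members and lists were chosen with earlier results of these data known.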

Additional observations from a re-analysis of the deposited data

Results flagged for a closer look

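In co-ex females after FA, the highest library for miR-29a-3p (replicate 2, 3867 normalized units) stood apart from the other three, which lay between 1334 and 1486. Its gap to the next library was 0.940 of the range of the group, above Dixon's 95% critical value for 4 samples. Of 20 groups of 4 that were examined for the members and their ratios this was the only one past that value, and chance alone passes about 1 group in 20. The library was also the deepest of its table, at 488993 reads, and the part of depth was not tested. Without this library the log2 change of miR-29a-3p after O3 in co-ex females was 0.42 in place of 0.05 and remained uncalled by limma.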

How the results depend on the processing

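The members were low in depth apart from miR-29a-3p, so intervals of miR-29b-3p and miR-29c-3p are wide, and a missed threshold does not show that a member was steady. Of 27 results on O3, 26 kept direction and call without a filter, with a pseudocount of 0.1, with library totals and with the block, 22 with edgeR and 24 with DESeq2, and all 12 on sex did so without a filter and with the block. The call for the mean change of miR-29c-3p was lost without a filter and with the block (1.06 each), with a pseudocount of 0.1 (1.28), edgeR (0.81) and without the late label codes (0.85). Library totals gained the call of miR-29a-3p in KO females (0.72), and DESeq2 that of miR-29b-3p in co-ex males against females after O3 (-0.94). The cause was not tested.

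The replicate numbers were also fitted as a block within each table. Deviations of same-numbered FA and O3 libraries correlated by -0.28 to 0.23 over 14 pairs, so the libraries share only a number. The block lost the call for miR-29c-3p in the mean (log2 change 1.06) and changed no other call of a member. It moved the count of called miRNAs from 4 to 1 in KO males, from 19 to 63 in co-ex males against females after O3, and from 21 to 14 in the difference between co-ex and KO females. In KO males these correlations between same-numbered FA and O3 libraries were 0.04 to 0.09.

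Estimates near 0 changed sign, and so did some that were not near 0. With edgeR, miR-29a-3p was at -0.039 in co-ex females, -0.056 in co-ex males and -0.031 in the difference between these tables, and miR-29b-3p at -0.10 in KO females. With DESeq2, miR-29a-3p was at -0.023 in co-ex females and -0.10 in the same difference, miR-29b-3p at -0.12 in KO females, and miR-29c-3p at 0.11 in KO males against females after FA. Without the late label codes, miR-29a-3p went from 0.33 to -0.049 in KO males. The difference between co-ex and KO males went from -0.093 to 0.29 for miR-29a-3p and from -0.45 to 0.067 for miR-29b-3p. That between KO males and females went from 0.65 to -0.25 for miR-29b-3p. KO males against females after FA went from -0.24 to 0.82 for miR-29b-3p and from -0.021 to 0.023 for miR-29c-3p. No O3 library has a late code, so KO after O3 had no such value. With library totals miR-29a-3p in KO males against females after O3 was at -0.092, and with a pseudocount of 0.1 the ratio of miR-29c-3p in co-ex males against females after FA at 0.72.

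With each library left out in turn, the mean change of miR-29c-3p ran from 0.80 to 1.18. The changes of miR-29a-3p ran from -0.10 to 0.42 in co-ex females, -0.11 to 0.55 in co-ex males and -0.049 to 0.54 in KO males, and that of miR-29b-3p from -0.28 to 0.81 in KO females. Between co-ex and KO females the difference ran from -0.062 to 1.03 for miR-29b-3p and from -0.049 to 1.49 for miR-29c-3p. Between co-ex and KO males it ran from -0.44 to 0.29 for miR-29a-3p and from -0.91 to 0.067 for miR-29b-3p. Between co-ex males and females it ran from -0.19 to 0.49, -0.64 to 0.052 and -1.09 to 0.46 for miR-29a-3p, miR-29b-3p and miR-29c-3p, and between KO males and females from -0.58 to 0.013 for miR-29a-3p and -0.74 to 0.19 for miR-29c-3p. Males against females ran from -0.27 to 0.45 for miR-29c-3p in co-ex after FA, -0.69 to 0.74 for miR-29b-3p and -0.34 to 0.23 for miR-29c-3p in KO after FA, and -0.031 to 0.16 for miR-29a-3p and -0.39 to 0.076 for miR-29c-3p in KO after O3. Ratios to miR-29a-3p ran from -0.15 to 0.36 for miR-29b-3p in co-ex males, -0.83 to 0.27 for miR-29b-3p and -0.24 to 0.51 for miR-29c-3p in KO females, and -0.0017 to 0.31 for miR-29c-3p in KO males. Between the sexes they ran from -1.06 to 0.42 for miR-29c-3p in co-ex after FA, and -0.71 to 0.39 for miR-29b-3p and -0.66 to 0.095 for miR-29c-3p in KO after FA. For miR-29b-3p in co-ex after O3 they ran from -1.99 to -1.35, where 4 libraries against 3 cannot reach an exact permutation p under 0.05.

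The counts of called miRNAs that serve as background also moved. In KO males they were 4, 2 with edgeR, 15 with DESeq2 and 86 without FA replicate 3. In KO females they ran from 25 to 52 with a library left out, in the mean from 33 to 64, between co-ex and KO females from 9 to 31 (32 with library totals, 35 with DESeq2), and in co-ex males against females from 11 to 68 after FA (56 with DESeq2) and 0 to 71 after O3 (59 with DESeq2, 10 without a filter).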
